A study of Mus musculus with 6 samples.

Results

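The Krüppel-like factors examined here were 10 genes, Klf2, Klf3, Klf4, Klf5, Klf6, Klf7, Klf9, Klf10, Klf13 and Klf15, taken as every array probe that the platform annotation assigns to one of these symbols. They were read by 18 of the 45281 probes, of which 15 probes for 9 genes lay above background. The series compared subcutaneous adipose tissue of mice carrying a mitoNEET transgene (3 arrays) with that of wild type mice (3 arrays). All mice were FVB males aged 12 weeks, and the tissue was collected in the light phase. MitoNEET, the product of Cisd1, sits in the outer membrane of mitochondria and carries an iron-sulfur cluster. The sample descriptions of both genotypes begin with aP2, the older name of Fabp4, whose promoter is used to express transgenes in adipocytes. The labels do not state which promoter drove the transgene, how many founder lines were used, or whether the arrays are from different animals. The p-values below therefore measure the spread between these samples, which may be technical.

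Krüppel-like factors are transcription factors that bind GC-rich and CACCC sequences in DNA through zinc fingers at the carboxyl end of the protein. In cultured preadipocytes some members promote the programme that ends in Pparg and Cebpa expression (Klf4, Klf5, Klf6, Klf9, Klf15) and others restrain it (Klf2, Klf3, Klf7). Several also work outside adipocytes: Klf2 and Klf4 in endothelium under flow, and Klf2 in resting T cells, where it keeps genes of lymphocyte trafficking on.

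Of the 9 genes measured above background, 1 fell (Klf2) and 1 rose (Klf9) in transgenic tissue, and 7 did not pass. A probe was called when limma's moderated test, adjusted by Benjamini-Hochberg over all probes kept, gave a value under 0.05. By that rule 12.8% of the 22475 probes above background were called, 5.6% higher and 7.23% lower, so 2 of 15 Klf probes is a share near that of the whole array. Across the 15 Klf probes the median log2 difference, transgenic minus wild type, was 0.06, against 0.03 over all probes. The groups did not overlap in 5 of the 15 Klf probes (3 higher, 2 lower), where 34.6% of all probes had no overlap. A two-sided exact permutation test over 3 against 3 arrays cannot give a p under 0.1, the value it gave for each of these 5.

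**Figure D1:**
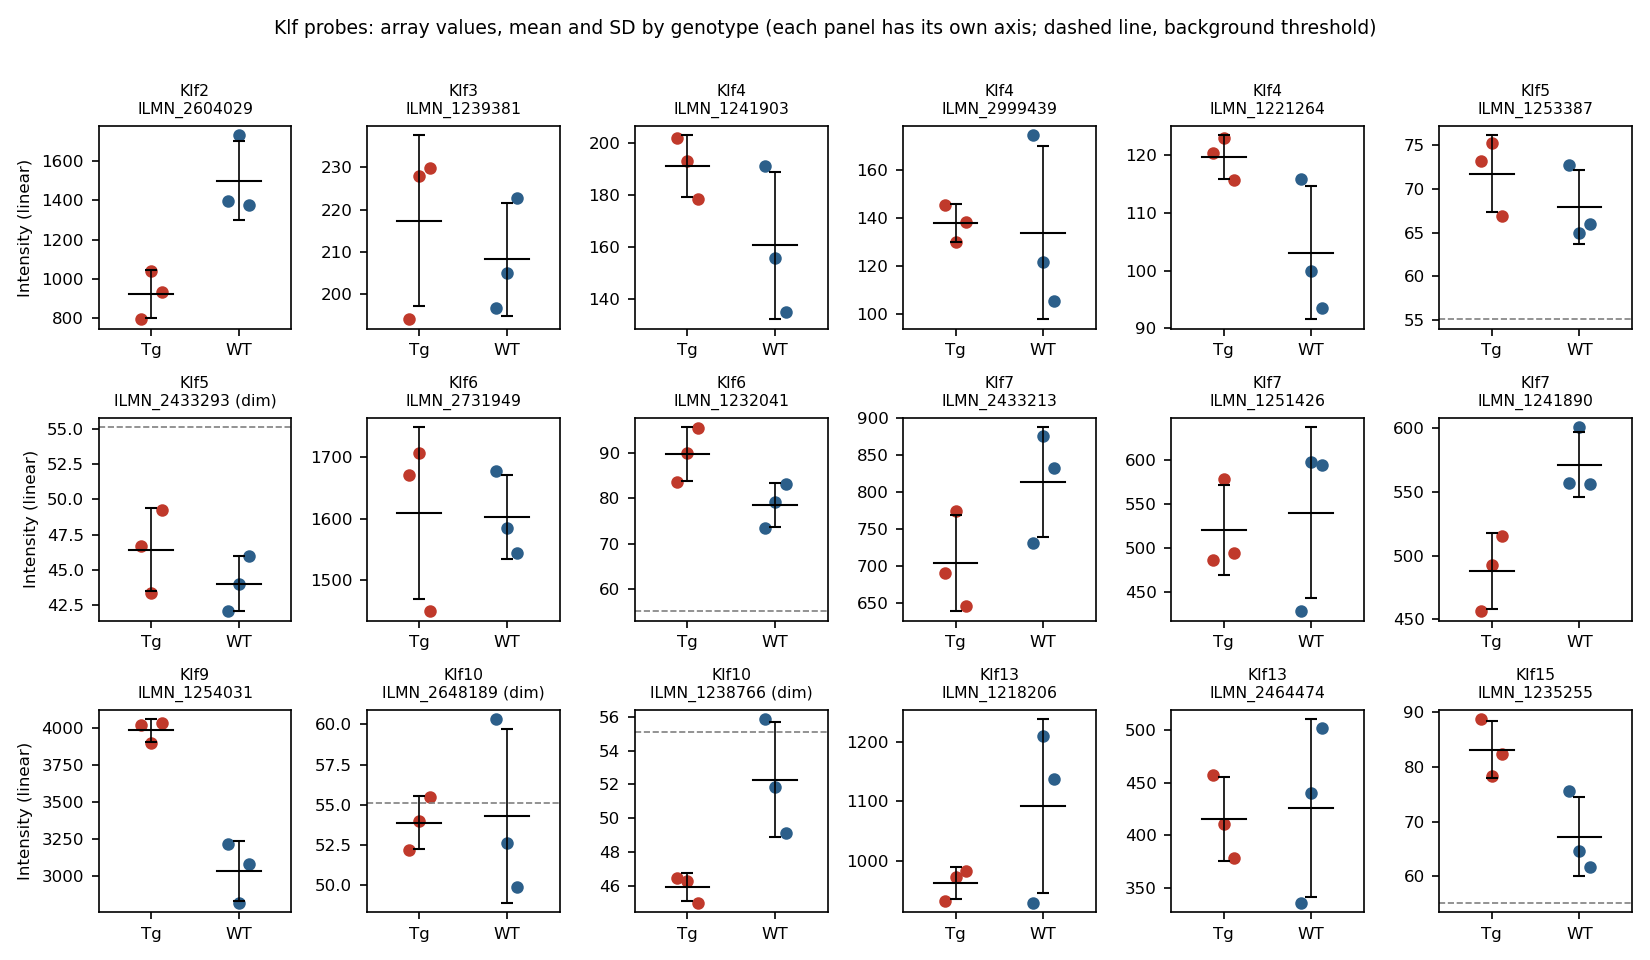
Array values of all 18 Klf probes as linear intensity, each panel with its own axis; points are arrays, the long bar is the mean and the whiskers are the SD of 3 arrays in transgenic (Tg) and wild type (WT) tissue. The transgenic Klf2 values, 794 to 1042, lie below all wild type values, and the transgenic Klf9 values, 3894 to 4030, lie above them.

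The DNA just upstream of the start sites is shown for Klf2 and Klf9, the genes called in opposite directions, and for Klf15, which came nearest to a call among the rest. The table of RefSeq promoters (GRCm38.p6) held 8 of the 10 members (all but Klf5 and Klf10), and the 250 bases before the listed start of transcription are given 5′ to 3′. In Klf2 (chr8:72318812-72319061, plus strand) capitals mark matches to GGGCGG, a box bound by Sp and Klf proteins, and to the MEF2 motif. In Klf9 (chr19:23140976-23141225, plus strand) they mark CACCC, bound by Klf proteins, and TGACG, a cAMP response element core. In Klf15 (chr6:90462326-90462575, plus strand) they mark CACGTG, the E-box bound by clock factors, and GGGCGG. Both strands were searched, and the marked matches do not overlap. CACCC and TGACG matches in Klf2 and Klf15 are left in lower case.
Klf2: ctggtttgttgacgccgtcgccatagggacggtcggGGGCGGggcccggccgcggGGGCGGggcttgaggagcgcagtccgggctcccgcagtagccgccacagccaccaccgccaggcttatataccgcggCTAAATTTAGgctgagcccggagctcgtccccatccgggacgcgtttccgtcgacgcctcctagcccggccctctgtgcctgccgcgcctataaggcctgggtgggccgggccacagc
Klf9: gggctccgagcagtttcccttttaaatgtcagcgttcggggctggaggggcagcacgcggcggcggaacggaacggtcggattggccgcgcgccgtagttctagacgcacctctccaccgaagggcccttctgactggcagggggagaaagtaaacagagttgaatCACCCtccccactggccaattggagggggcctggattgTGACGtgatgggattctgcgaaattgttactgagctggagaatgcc
Klf15: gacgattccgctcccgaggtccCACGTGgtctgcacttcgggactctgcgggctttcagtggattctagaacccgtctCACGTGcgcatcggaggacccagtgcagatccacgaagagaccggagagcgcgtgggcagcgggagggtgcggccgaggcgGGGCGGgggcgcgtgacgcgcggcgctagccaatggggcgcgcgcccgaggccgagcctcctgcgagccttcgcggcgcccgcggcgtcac

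Klf2 held 2 matches to GGGCGG, a motif present in 32.7% of 32851 RefSeq windows of this length, and 1 to MEF2, present in 2.92%. It was the only one of the 8 members with a MEF2 match. Klf9 was the only one without GGGCGG, and it had 1 CACCC and 1 TGACG match (52.0% and 17.8% of windows). Klf15 had 2 CACGTG matches, and Klf4 and Klf6 had 1 each, against 6.02% of windows that hold the motif. The windows of Klf2, Klf9 and Klf15 held 71.2%, 59.6% and 72% G and C, against a median of 52.4% over all windows. The shares over all windows are thus not matched to them in base content. A match of letters is a description of the window and not a bound site.

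Klf2, the factor of quiescent T cells and of flow-exposed endothelium, fell in transgenic tissue. Its probe (Entrez Gene 16598) read 794, 1042 and 935 on the transgenic arrays, against 1396, 1730 and 1374 on the wild type arrays. Every transgenic array was below every wild type array, and the highest single value was wild type array 2. The log2 difference was −0.70 (SE 0.13, 95% interval −0.99 to −0.41, adjusted p = 0.0161), a 1.63-fold lower level. Without wild type array 2 the difference was −0.59 and the adjusted p 0.0536. In the other 5 single exclusions the call was kept, with adjusted p from 0.0171 to 0.0487.

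Klf9, induced by glucocorticoids and thyroid hormone and an activator of Pparg during adipocyte differentiation, rose. Its probe (Entrez Gene 16601) read 4020, 3894 and 4030 on the transgenic arrays, against 3215, 2819 and 3081 on the wild type arrays. The transgenic values lay close together, with an SD of 75.7 about a mean of 3981, whereas the wild type SD was 201 about 3039. The log2 difference was 0.39 (SE 0.09, 95% interval 0.20 to 0.59, adjusted p = 0.0235), or 1.31-fold. The size changed little when single arrays were left out (0.34 to 0.43), but Klf9 no longer passed without wild type array 2 (adjusted p = 0.0933), transgenic array 1 (0.0759), transgenic array 2 (0.0780) or transgenic array 3 (0.0608). With background subtracted, neither Klf2 nor Klf9 passed (adjusted p = 0.102 and 0.114), and neither did without limma's moderation of the variance (0.149 for both), although the differences were −0.73 and −0.70 for Klf2 and 0.40 and 0.39 for Klf9.

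Klf15, an activator of the glucose transporter gene Slc2a4 and of amino acid breakdown, did not pass. Its dim probe read 88.8, 78.4 and 82.3 on transgenic arrays, against 75.6, 64.6 and 61.7 on wild type arrays, where the background threshold was 55.1. The groups did not overlap, with a log2 difference of 0.31 (SE 0.10, 95% interval 0.08 to 0.54, adjusted p = 0.0796). Background remains in these values, which understates a fold at such low intensity. With the background level subtracted the difference was 0.90 (SE 0.28, adjusted p = 0.132). Without wild type array 1 it was 0.40 and passed (adjusted p = 0.0382).

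**Figure D2:**
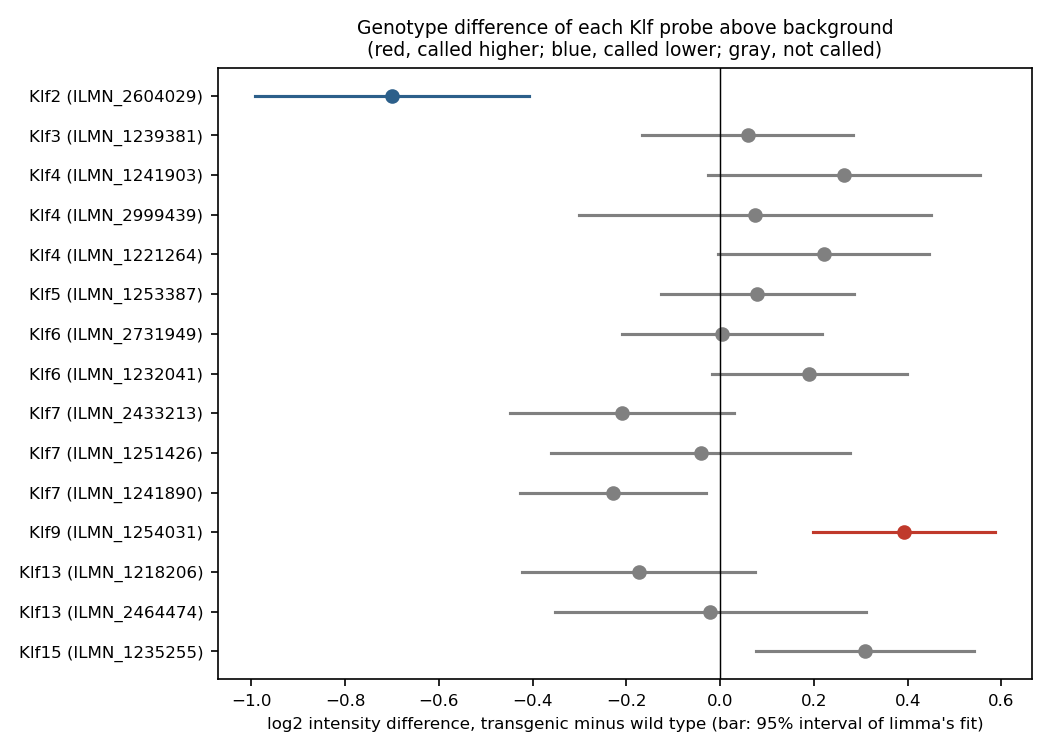
Log2 intensity difference, transgenic minus wild type, of the 15 Klf probes above background, with the 95% interval of limma's fit as a bar. Klf2 at −0.70 is called lower and Klf9 at 0.39 is called higher, and the other 13 probes are not called.

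Klf7, which restrains adipocyte differentiation in cultured human cells, was read by 3 probes that gave differences below 0, none of which passed. The probe ILMN_1241890 read 456, 492 and 515 in transgenic tissue, against 557, 601 and 557 in wild type tissue, without overlap (log2 −0.23, SE 0.09, adjusted p = 0.117). The brightest Klf7 probe differed by −0.21 (95% interval −0.45 to 0.03), with overlapping groups. The remaining one differed by −0.04 (−0.36 to 0.28), wild type array 1 being its lowest array at 428.

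Klf4, which acts early in adipogenesis on Cebpb and also in endothelium and epithelia, was read by 3 probes with differences above 0 that did not pass. The brightest read 202, 193 and 178 in transgenic tissue, against 191, 156 and 135 in wild type tissue. Its difference was 0.26 (SE 0.13, adjusted p = 0.202), and wild type array 1 was the array that overlapped the transgenic values. Without that array it was 0.40 (adjusted p = 0.0498), so that 4 Klf genes were called there, with Klf2, Klf9 and Klf15. The other Klf4 probes differed by 0.08 and 0.22, and wild type array 1 was the highest wild type array for all 3 probes.

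Klf6, an immediate early gene that represses Dlk1 in cultured preadipocytes, gave a different reading from each of its probes. The bright probe read 1672, 1707 and 1449 in transgenic tissue, against 1679, 1586 and 1544 in wild type tissue, a log2 difference of 0.00 (95% interval −0.21 to 0.22). The dim probe read 83.5, 90.1 and 95.4 against 73.5, 79.2 and 83.0, without overlap but by a margin of less than 1 unit of intensity (log2 0.19, SE 0.09, adjusted p = 0.198). What parts of the transcript each probe reads was not analysed here.

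Klf13, which activates the chemokine gene Ccl5 in T cells, had differences of −0.17 (95% interval −0.42 to 0.07) and −0.02 (−0.35 to 0.31) on its probes. On the brighter one, transgenic arrays read 932, 972 and 982 and wild type arrays 928, 1210 and 1137. Wild type array 1 thus lay below all transgenic arrays while the other wild type arrays lay above them.

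Klf3, a repressor that recruits CtBP proteins and acts on Cebpa, read 194, 228 and 230 in transgenic tissue, against 197, 205 and 223 in wild type tissue. The groups overlapped, with a log2 difference of 0.06 (95% interval −0.17 to 0.28). Klf5, which links Cebpb and Cebpd to Pparg, was dim on its measured probe, at 73.2, 75.2 and 66.8 in transgenic and 72.8, 65.0 and 66.0 in wild type tissue (log2 0.08, 95% interval −0.13 to 0.28). Its other probe, between 43.4 and 49.2 in transgenic and between 42.1 and 46.0 in wild type tissue, was below the threshold of 55.1 on all 6 arrays.

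Klf10, an early gene of TGF-beta signalling, was not measured above background. One probe read 52.2, 54.0 and 55.5 in transgenic tissue, against 60.3, 52.6 and 49.9 in wild type tissue, and exceeded the threshold on 2 arrays. The other read 46.5, 46.3 and 45.0 against 55.9, 51.8 and 49.1 and exceeded it on 1 array. No fold is given, and such readings cannot show whether the gene is weakly expressed or its probes read poorly.

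The adipocyte marker Adipoq, the adiponectin gene, was bright, at 15907, 14743 and 16177 in transgenic and 14214, 11615 and 12740 in wild type tissue. Lpl was bright too, at 18767 to 21748 over the 6 arrays. The probes of other adipocyte markers read near the threshold of 55.1: Fabp4 at 59 to 75, Cd36 at 48 to 62 and Retn at 69 to 103. Cisd1 read 1091, 1106 and 1060 in transgenic tissue, against 1035, 773 and 937 in wild type tissue (log2 0.26, SE 0.11, adjusted p = 0.162). Marker genes of several cell types differed between the genotypes. The score of a marker list on an array is the mean log2 deviation of its measured genes from their 6-array means. Of 18 T and NK cell markers 14 fell, and the score was −1.56, −0.49 and −0.18 on transgenic arrays, against 0.39, 1.13 and 0.70 on wild type arrays. All 13 B cell markers fell, with scores of −1.22, −0.45 and −0.56 against 0.46, 1.11 and 0.65. Markers of lymphoid stroma, the non-lymphocyte cells and vessels of lymph nodes, fell in 6 of 7 cases with a median of −2.27, among them Ccl21a, Ccl21c, Ccl19, Cxcl13, Glycam1 and Chst4, of which Ccl21a and Ccl21c are near-identical copies. Their scores were −1.89, −0.51 and −0.26 on transgenic arrays, against 0.56, 1.29 and 0.80 on wild type arrays, in the same array order as the T and NK cell score. Of these 7, 1 passed without wild type array 2 and 0 without transgenic array 2. In those fits limma kept 22475 probes, of which 4589 and 5350 were under 0.05 before adjustment. Over all probes it called 92 higher and 455 lower without wild type array 2. It called 31 higher and 268 lower without transgenic array 2, against 1259 and 1626 in the fit to all arrays. Calls were thus fewer over all probes in those fits, but lists lost them unequally: B cell markers kept 12 and 10 of 13. The cause was not tested. Of 21 adipocyte markers 7 rose (33.3%), with scores of 0.23, 0.15 and 0.11 against −0.09, −0.31 and −0.10. Of 22 endothelial markers 3 rose, with scores of 0.18, 0.15 and 0.21 against −0.27, −0.41 and 0.13. That share, 13.6%, is near the 12.8% of all probes that were called. Pecam1, an endothelial marker not called on its brightest probe, had 1 of its 3 probes called lower (log2 −0.36). Without wild type array 2 the counts for T and NK cell, B cell, adipocyte and endothelial markers were 3 of 18, 12 of 13, 0 of 21 and 0 of 22, and without transgenic array 2 they were 1, 10, 0 and 0. Without wild type array 3, 14 of the 22 endothelial markers rose. Skeletal muscle markers, of which 0 of 12 were called, set wild type array 2 apart at a score of 3.06, against −1.26 to −0.10 on the other 5 arrays. In bulk tissue, fewer cells of a type and less RNA per cell cannot be told apart.

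Klf2 fell, as the lymphocyte lists did. Its log2 difference of −0.70 was smaller in size than the score differences of the lymphocyte lists (−1.48 for T and NK cells, −1.48 for B cells). It was opposite in sign to the 0.36 of endothelial markers. Only 3 of 22 endothelial markers were called, a share near that of all probes. Their score on wild type array 3, 0.13, lay near the transgenic scores of 0.15 to 0.21. Within the wild type group Klf2 and both lymphocyte scores were highest on array 2, and within the transgenic group all 3 were lowest on array 1. The skeletal muscle score was also highest on wild type array 2. Its wild type order (2, 1, 3) was that of Klf2, while among transgenic arrays it was lowest on array 3. The root-mean-square gap between the log2 deviations of Klf2 and a score was taken over 6 arrays. It was 0.53 for T and NK cells, 0.42 for B cells, 0.57 for adipocytes and 0.60 for endothelium. For macrophages, whose score differed by only 0.04 between the genotypes, the gap was also 0.42. The gap was smallest, at 0.17, for brown adipocyte markers, of which 4 of 9 fell. Klf2 was thus not nearest to a lymphocyte list in size. The full order of the arrays in Klf2 matched the B cell score among transgenic arrays (2, 3, 1) and matched neither lymphocyte score among wild type arrays. With the T and NK cell score as a covariate the Klf2 difference was −0.31 (SE 0.19, adjusted p = 0.689), with the adipocyte score −0.15 (SE 0.23) and with the endothelial score −0.52 (SE 0.18). Scores and genotype move together, so these fits have little power: with each covariate limma called 0 of 22475 probes, while 1830, 492 and 2314 probes had an unadjusted p under 0.05. The lymphoid stroma score, too, was lowest on transgenic array 1 and highest on wild type array 2, with a difference of −1.77. The part of lymphocyte or lymph node content in the Klf2 difference was not tested beyond these values.

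Klf9 followed the adipocyte list in direction and size. Its difference of 0.39 stood beside a score difference of 0.34 for adipocyte markers. The root-mean-square gap between the log2 deviations of Klf9 and the adipocyte score over 6 arrays was 0.05, against 0.15 for endothelial, 1.06 for T and NK cell and 1.00 for B cell markers. Among wild type arrays Klf9 and the adipocyte score had the same order (1, 3, 2), and among transgenic arrays they did not. The Klf9 difference was 0.19 (SE 0.19) with the adipocyte score as a covariate, 0.30 (SE 0.16) with the T and NK cell score and 0.33 (SE 0.13) with the endothelial score, none of which passed. For Klf15 the gap was 0.10 to the adipocyte, 0.14 to the macrophage and 0.23 to the endothelial score. Its difference was 0.14 with the adipocyte score as a covariate, 0.10 with the T and NK cell score and 0.40 with the endothelial score. These lists share arrays and normalization with the Klf probes, so the gaps are a description only.

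**Figure D3:**
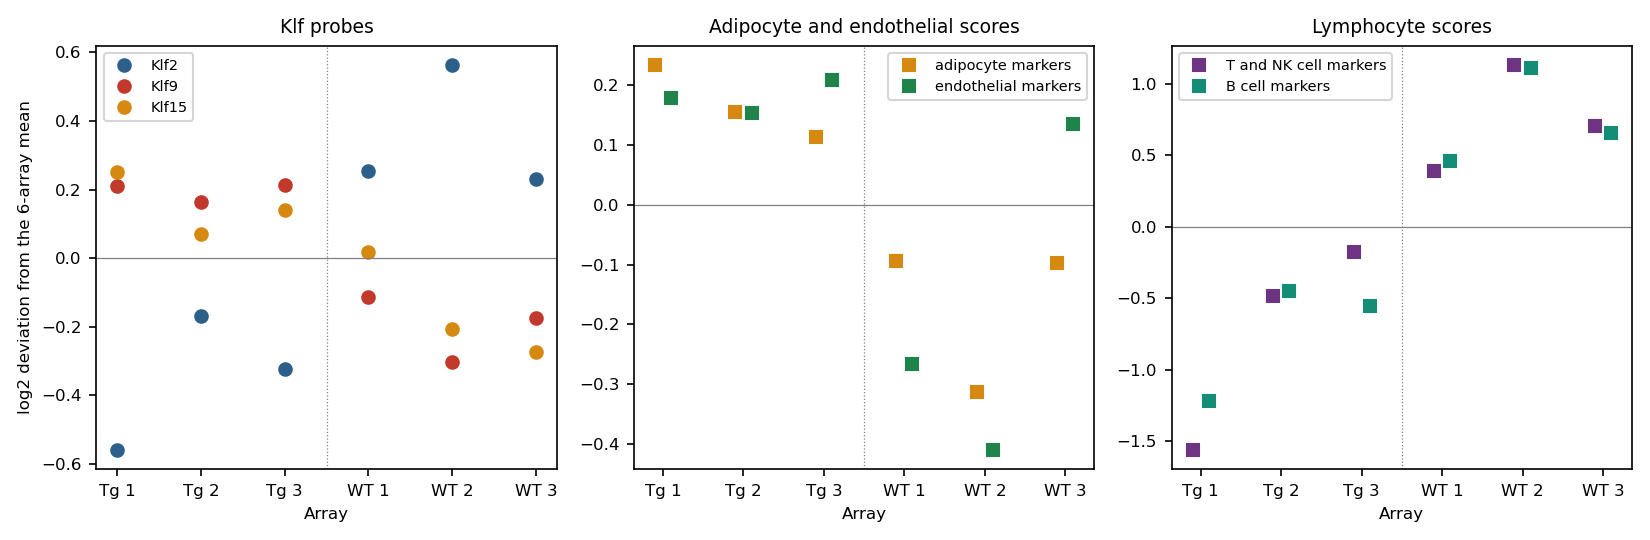
Log2 deviation from the 6-array mean on each transgenic (Tg) and wild type (WT) array, for the probes of Klf2, Klf9 and Klf15 (left) and for the scores of adipocyte and endothelial markers (middle) and lymphocyte markers (right); the panels have their own vertical axes. Klf2 and the lymphocyte scores are below 0 on the transgenic arrays, and Klf9 and the adipocyte score are above 0 there.

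Among the uncalled members, the brighter Klf13 probe had the array order of the T and NK cell score within both genotypes, and 1 of the 3 Klf7 probes had that of the B cell score within both. No other Klf probe matched the order of an adipocyte, endothelial or lymphocyte score in both genotypes. Matches in both genotypes were not limited to lymphocyte scores. The probes of Klf15 and Klf4 ILMN_2999439 had the order of the macrophage score, and Klf4 ILMN_1221264 and the bright Klf6 probe that of the brown adipocyte score. With 3 arrays per genotype only 6 orders exist, and no test was made. With the adipocyte score as a covariate the brighter Klf13 probe differed by 0.17 and the Klf7 probes by −0.02, 0.31 and 0.00, and none passed.

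Genes most like a member were taken as those with the smallest root-mean-square gap in log2 deviation over the 6 arrays, among 11640 genes outside the family. For Klf2 these were Havcr1, Neurl3 and Stxbp3, at gaps of 0.050 to 0.053, with differences of −0.63, −0.66 and −0.67. For Klf9 they were Pts, Ppp1r2 and 0610040B10Rik, at 0.017 to 0.024, with differences of 0.37, 0.37 and 0.39. For Klf15 they were Taf13, Islr and Chchd6, at 0.024 to 0.035. For the members that were not called, other than Klf15, the genes nearest to the brightest probe were Thg1l, Clns1a and Ngb for Klf3, Ro60, Fggy and 2610001J05Rik for Klf4, and Ap3s2, Cetn3 and Srp68 for Klf5. They were Psme4, Capn1 and Vars2 for Klf6, Sdad1, Taf8 and Lrch1 for Klf7, and Mier2, Klk1b21 and Wif1 for Klf13. Gaps for those 6 members ran from 0.014 to 0.040.

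Of 5 measured lymphocyte genes in the list tied to Klf2, which holds genes it is known to sustain and also others of activation and homing, 4 fell in transgenic tissue, with a list median of −1.68. Il7r, the interleukin-7 receptor gene, read 95.5, 229 and 243 in transgenic tissue, against 619, 678 and 477 in wild type tissue (log2 −1.74, adjusted p = 0.0156). Itgb7, a gut-homing integrin gene, fell by 1.68 on the log2 scale, and Ccr7, the lymph node homing receptor gene, fell by 0.80 (adjusted p = 0.0479). Cd69, an activation marker that opposes lymphocyte exit rather than a gene Klf2 switches on, fell by 1.70. S1pr1, the exit receptor gene and a direct target of Klf2, was not measured above background, between 40.5 and 50.8 in transgenic and 39.8 and 43.3 in wild type tissue. The lymphocyte and lymphoid stroma markers fell as well, as given above, and 1 of the 5 genes passed without wild type array 2, and 2 without transgenic array 2.

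Endothelial genes tied to Klf2 and Klf4 moved in both directions: 1 of 10 rose and 2 fell, with a median of 0.25. Nos3, the endothelial nitric oxide synthase gene that Klf2 activates, rose by 0.37 (968, 922 and 1036 in transgenic, 754, 691 and 830 in wild type tissue, adjusted p = 0.0419), a call lost in 5 of 6 single exclusions (adjusted p up to 0.154) and made by 1 of its 3 probes. Thbd, the thrombomodulin gene, also activated by Klf2, differed by 0.37 (SE 0.18, adjusted p = 0.202) with overlapping groups. Icam1 and Vcam1, leukocyte adhesion genes that Klf2 restrains in cultured endothelium, fell by 0.85 and 0.81, and both kept their calls in all 6 single exclusions. Nrp1, a VEGF co-receptor gene, differed by 0.29 (adjusted p = 0.0720).

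Genes of metabolism tied to Klf15 were higher in 4 of 8 measured cases, with a median of 0.44 and none lower. Prodh, which begins proline breakdown, read 871, 760 and 713 in transgenic tissue, against 542, 496 and 543 in wild type tissue (log2 0.56, adjusted p = 0.0149). The gene for the glucose transporter of insulin-sensitive cells, Slc2a4, which is also an adipocyte marker, rose by 0.55, and the alanine transaminase genes Gpt and Gpt2 rose by 0.47 and 0.68. Without wild type array 2 none of the 8 passed, nor without transgenic array 2, and 2 passed without transgenic array 1. The median stayed between 0.33 and 0.49 in the 6 single exclusions.

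**Figure D4:**
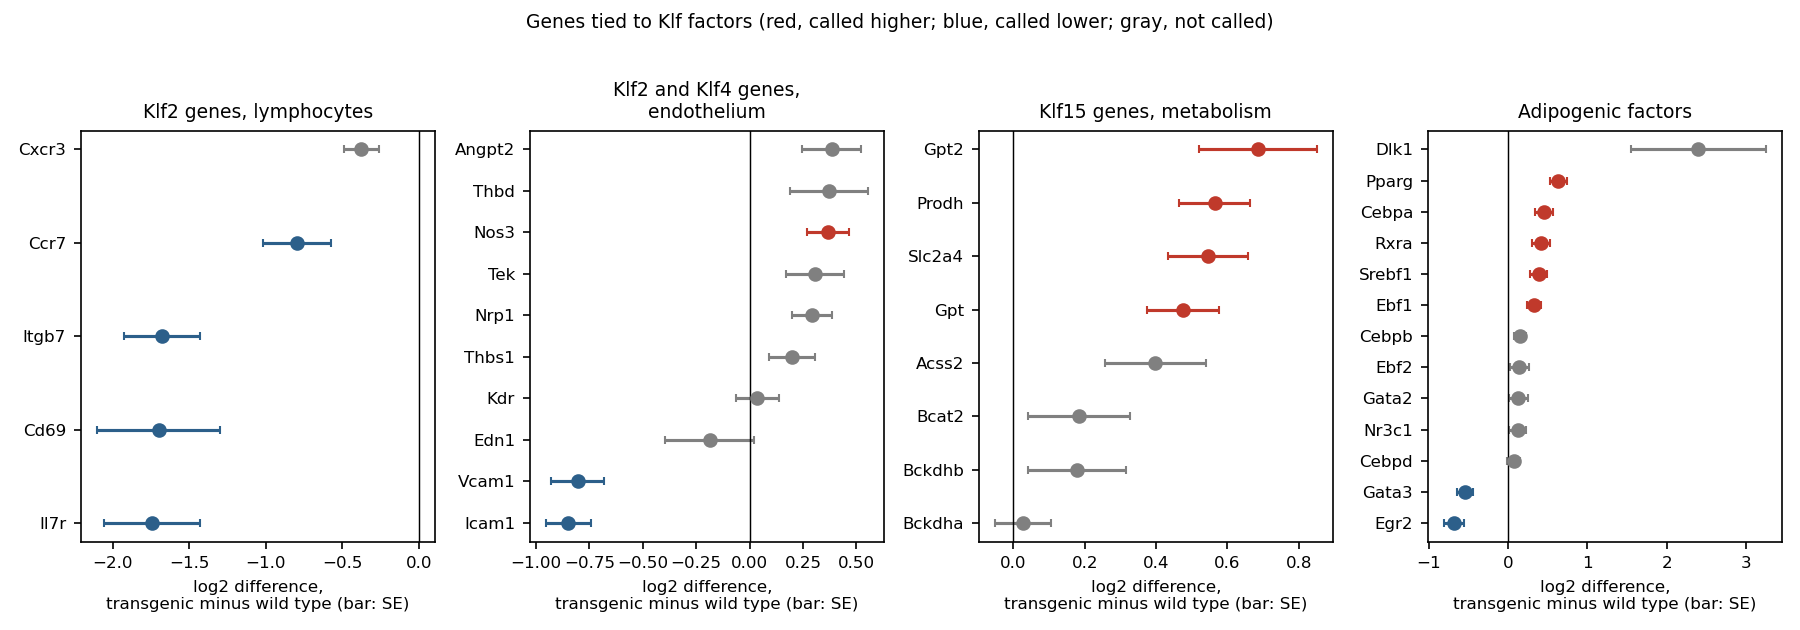
Log2 difference, transgenic minus wild type, with its SE as a bar, for the measured genes of the lists tied to Klf2 in lymphocytes, Klf2 and Klf4 in endothelium, Klf15 in metabolism, and for adipogenic factors; each panel has its own axis. The lymphocyte genes lie below 0 and the Klf15 genes above 0, while the endothelial and adipogenic lists hold genes on both sides.

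Among 13 adipogenic factors tied to the family, 5 rose and 2 fell, with a median of 0.15. Pparg, the master regulator of adipocytes, on which Klf2, Klf5, Klf9 and Klf15 act, rose by 0.63 (adjusted p = 0.0142), and Cebpa rose by 0.45. Cebpb and Cebpd, which act before them, differed by 0.15 and 0.07 and did not pass (adjusted p = 0.246 and 0.640). Gata3, a factor of T cells that also restrains preadipocytes, and Egr2 fell by 0.55 and 0.69. Dlk1, the preadipocyte gene that Klf6 represses, read 1588, 1914 and 1624 in transgenic tissue, against 125, 143 and 1883 in wild type tissue. Wild type array 3 thus lay at the transgenic level for Dlk1, and the difference of 2.40 (SE 0.85, adjusted p = 0.0953) did not pass. Pparg lost its call without transgenic array 2 (adjusted p = 0.0558), and Cebpa in 5 of 6 single exclusions (up to 0.113). Over the 13 factors, 0 rose and 0 fell without transgenic array 2, and 1 rose and 0 fell without wild type array 2.

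Of the genes tied to Klf13, Ccl5 fell by 2.18, at 233, 595 and 639 in transgenic and 1609, 2956 and 1746 in wild type tissue, and kept its call in all 6 single exclusions. Bcl2l1, a survival gene, differed by 0.36 on its brightest probe (adjusted p = 0.0517), and 1 of its 3 probes passed.

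Of the other 7 Klf genes on the array, Klf1, Klf8, Klf11, Klf12, Klf14, Klf16 and Klf17, only Klf16 lay above background (log2 0.05, adjusted p = 0.783). Of 5 measured Sp genes, close relatives that bind GC boxes, 2 fell, Sp4 by 0.50 and Sp3 by 0.31, both at intensities under 110. Of 14 cofactors 1 rose and 1 fell, a share of 14.3% beside the 12.8% of all probes. Ctbp2, a corepressor recruited by Klf3, rose by 0.53 (148, 143 and 147 in transgenic, 99.1, 94.7 and 111 in wild type tissue) on 1 of its 2 probes. Mef2c, a MEF2 factor present in B cells, endothelium and muscle, fell by 0.61 (adjusted p = 0.0379), and 3 of its 4 probes passed. Mef2c lost its call in 4 of 6 single exclusions, and Mef2d, another MEF2 factor, differed by 0.12 and did not pass (adjusted p = 0.354). MEF2 factors are known activators of Klf2, but whether Mef2c bears on the Klf2 difference was not tested. Without wild type array 2, 0 Sp genes and 1 cofactor, Ctbp2, passed.

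Lists of pathways known to induce Klf9, Klf15, Klf4, Klf6 and Klf10 had medians near that of all probes, but their shares of called genes varied. These were 7.14% for glucocorticoid-responsive, 23.53% for immediate early, 45.45% for TGF-beta early and 8.33% for clock genes, beside 12.8% of all probes. Of 14 glucocorticoid-responsive genes 0 rose and 1 fell (median 0.06), the one being Pdk4, by 0.64 on the log2 scale, which also responds to fasting. Fkbp5 differed by 0.33 (SE 0.28), with transgenic array 1 at 351 and the other 5 arrays between 147 and 190. Tsc22d3 differed by 0.05 on its brightest probe and by up to 0.88 on its 3 probes, 1 of which passed, and Per1 differed by −0.16. Of 17 immediate early genes 1 rose, Ccn1 by 0.50, and 3 fell: Egr3 by 1.32, Egr2 by 0.69 and Junb by 0.56 (median −0.04). Ccn1 was called on 1 of its 3 probes, which ranged down to −0.07, and Egr3 on 1 of 2, the other at −0.08. Fos and Egr1 differed by −0.10 and −0.57 and did not pass. Of 11 early genes of TGF-beta signalling 3 rose and 2 fell (median −0.01), with Id1 up by 0.83, Id3 up by 0.72, Id2 lower (log2 −0.67) and Tgfb1 lower (−0.43). Id2 was called on 1 of its 2 probes, the other at −0.11. Of 12 clock genes 1 rose, Dbp by 0.38 (median 0.07), while Per2 and Arntl differed by 0.41 and −0.29 (adjusted p = 0.0601 and 0.0859). Calls in these lists, like those over all probes, were fewer without particular arrays. Without transgenic array 2 none passed in any of the 4 lists, where 31 probes were called higher and 268 lower of all 22475. Without wild type array 2 there was 1 immediate early gene and 1 TGF-beta gene, beside 92 higher and 455 lower of all probes.

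**Figure D5:**
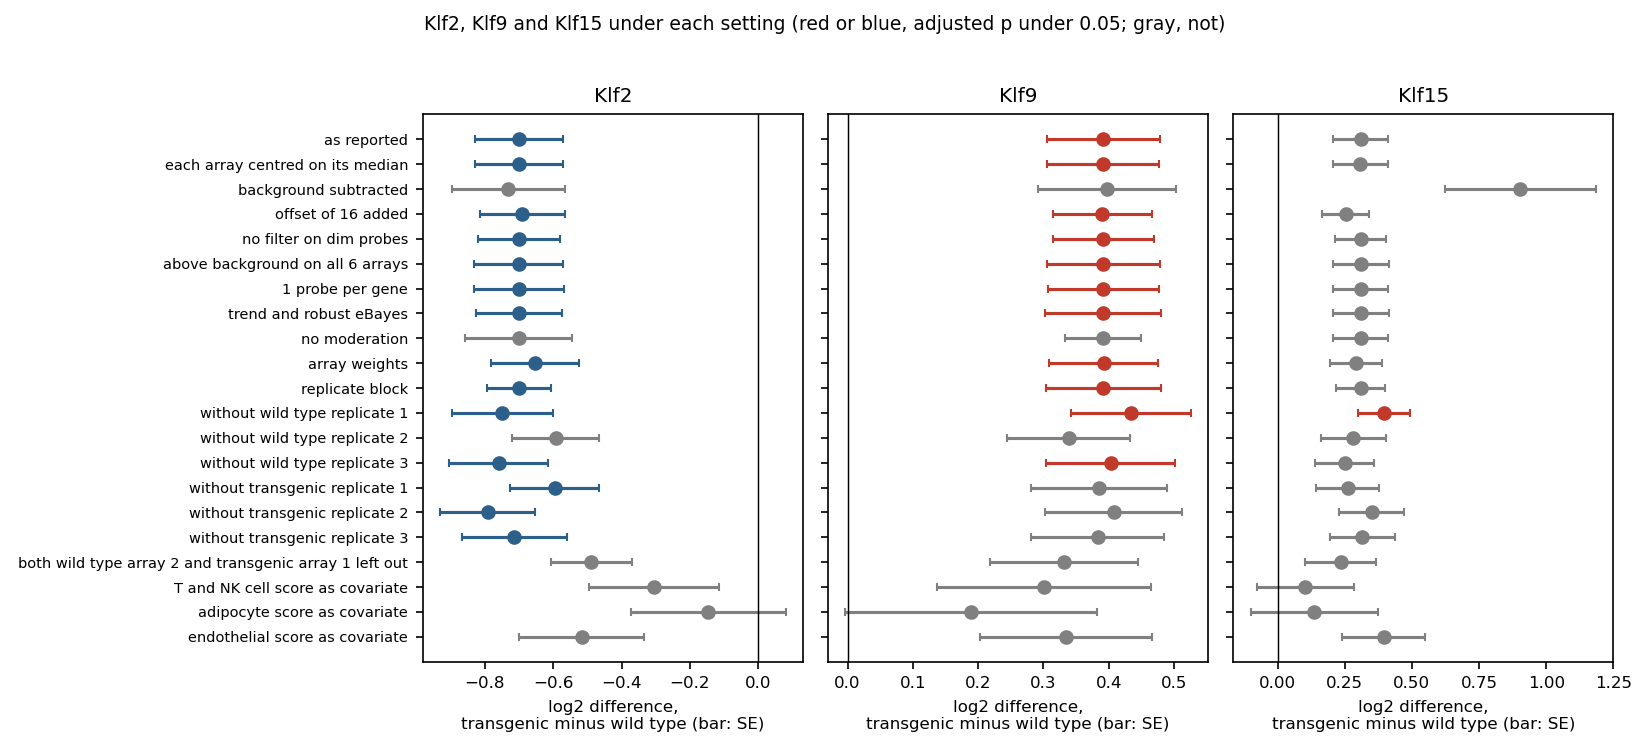
Log2 difference, transgenic minus wild type, with its SE, for Klf2, Klf9 and Klf15 as reported and under each alternative fit; each panel has its own axis. Klf2 ranges from −0.79 to −0.15 and Klf9 from 0.19 to 0.43 without a change of sign, and the values nearest to 0 for both come with the adipocyte score as covariate.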

How the data were processed

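Total RNA from 6 tissue samples was labelled with biotin and hybridised to Illumina bead arrays, per the labels' protocols. The authors deposited linear probe intensities. Which software normalized them is not stated in the labels. Their sorted intensities differed between arrays by at most 0.157, as quantile-normalized values do, and the lowest was 32.4, with background still present. The 24 scanner columns of per-array values match no sample label and were not used.

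The genotypes were compared on log2 intensities by limma 3.58.1 under R 4.3.3 (lmFit, eBayes, no covariate, Benjamini-Hochberg over all probes kept, threshold 0.05), a fit first tested on simulated data. The background mode was 47.6, the threshold 55.1 (mode plus 1.6 times the spread below it), and probes above it on at least 3 of 6 arrays were kept. Every probe was tested separately. Alternatives were median centring, background subtraction, an offset, other filters, 1 probe per gene, other variance models, array weights, a replicate block, arrays left out, marker scores as covariates and another threshold. A listed gene was represented by its brightest kept probe. Named genes were the members, Cisd1, a fixed set of regulators and targets, up to 4 genes of smallest p per list, and 3 nearest genes per member; Dlk1, Bcl2l1, Klf16 and Adipoq were named for their role or after their values were seen. Members, lists and tests were chosen with earlier results of these data known. The platform annotation names 34885 probes with 1 gene, 18 with several and 10378 with none. Only 3 arrays per group limit the precision.

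Replicate numbers come from the titles, which do not say that a number marks a shared animal or day. Deviations from the group means correlated at 0.389, 0.196 and -0.0236 for numbers 1, 2 and 3, so the numbers were not taken as pairs.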

Additional observations from a re-analysis of the deposited data

How the results depend on the processing

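The counts of 1259 probes higher, 1626 lower and 2 Klf genes called moved by over 1.5 times in some settings. With background subtracted they were 2, 22 and 0 (5836 probes were under 0.05 in limma before adjustment). Without moderation they were 1, 0 and 0 (5489), and with wild type array 2 and transgenic array 1 both left out 42, 419 and 0 (3593). With the T and NK cell, adipocyte or endothelial score as covariate they were 0, 0 and 0. With 1 probe per gene 758 were higher, from fewer features, and at an adjusted p under 0.1 there were 2490. With 1 array left out the counts ran from 31 to 1652 higher, 268 to 1718 lower and 0 to 4 Klf genes. The cause was not tested. With a replicate block 1589 were higher and 1961 lower, and Klf2 (adjusted p = 0.00331) and Klf9 (0.0238) stayed called; no other Klf call changed.

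Of 309 values of Klf probes under alternatives 26 changed sign, none of them for Klf2, Klf9 or Klf15. With 1 array left out they ran from -0.081 to 0.28 for Klf4 ILMN_2999439, -0.042 to 0.077 for the bright Klf6 probe, -0.20 to 0.040 for Klf7 ILMN_1251426 and -0.18 to 0.11 for the dimmer Klf13 probe, and among other genes -0.063 to 0.56 for Fkbp5, -0.018 to 0.17 for Tsc22d3, -0.32 to 0.13 for Fos and -0.012 to 0.16 for Klf16. With both arrays left out these were -0.016 (Klf4), -0.034 (Klf6), 0.085 (Klf7), -0.10 (Fkbp5) and -0.012 (Klf16). With the T and NK cell score as covariate values were -0.21 for Klf4, -0.057 for Klf5, -0.15 for Klf6, 0.23 for Klf7, 0.046 for the brighter Klf13 probe, 0.0009 for Ccr7, -0.88 for Fkbp5, 0.22 for Egr1 and 0.090 for Cd69. With the adipocyte score they were -0.18 for Klf4, -0.093 for Klf5, -0.12 for Klf6, 0.31 and 0.0016 for 2 Klf7 probes, 0.17 for Klf13, -0.18 for Klf16, -0.20 for Cisd1, 0.37 for Ccr7, -0.52 for Fkbp5, 0.41 for Egr1, 0.10 for Cd69, -0.0067 for Gpt2, 0.054 for Egr3 and 0.20 for Mef2c. With the endothelial score they were -0.039 for Klf3, -0.19 for Klf16 and 0.31 for Fos. Counts of listed genes without arrays were added after seeing the data.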
